A study of Homo sapiens with 36 samples.

Results

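The transcriptional response to Src in cells depleted of YAP was measured in 4 RNA-seq libraries out of the 36 in the series, 20 of which come from the same cell line. The 4 were chosen by their labels and not by any measured value: MCF-10A ER-Src cells transfected with YAP siRNA (YAPi) and given either tamoxifen (YAPi_TAM, 2 libraries, labelled transformed) or the ethanol vehicle (YAPi_ETH, 2 libraries, labelled non-transformed). MCF-10A is an established, non-transformed human breast epithelial cell line, and its ER-Src derivative makes the v-Src oncoprotein joined to the hormone-binding part of the estrogen receptor, a kinase that stays inactive until tamoxifen is added. The question asked of these libraries was which part of the Src response is still made when YAP is low, and the comparison libraries were the same cells with a control siRNA (Ctrli_TAM and Ctrli_ETH, 2 each). All of these cells carry the fusion. The growth medium, which contained EGF, insulin, hydrocortisone and cholera toxin, was the same for every ER-Src library. The labels give tamoxifen at 0.4 to 1 µM together with AZD0530, a Src family kinase inhibitor, at 2 to 4 µM as the inducing treatment. By the study's methods, cells carrying an siRNA were given tamoxifen and AZD0530 at 4 µM for 2 or 24 hours. Which of these times applies to each library, and whether the ETH libraries received AZD0530, was not given per library in the sources used here.

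YAP (gene YAP1) and its paralog TAZ (gene WWTR1) are the transcriptional co-activators held back by the Hippo kinase cascade. They do not bind DNA themselves but are brought to it by TEAD factors, which often act beside AP-1 (dimers of JUN and FOS proteins). In breast epithelium, Src activation is known to turn on an inflammatory programme run by STAT3, NF-kB and AP-1, with secretion of cytokines, chemokines and acute phase proteins.

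The siRNA is shown first because the whole comparison rests on it. The study lists a commercial pool of oligonucleotides against YAP1, whose sequences are not used here, and 1 further oligonucleotide, printed in lower case throughout. It was not stated which was used for these libraries. All 19 bases of the printed sequence match exon 2 of the 9 exons of YAP1 on the plus strand at chr11:102114365-102114383 (hg38), within the coding sequence, and 8 of the 9 coding transcripts in GENCODE v44 hold the site.
YAP1 siRNA: gacaucuucuggucagaga

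YAP1 was low in every YAPi library, with or without tamoxifen. Levels are given as normalized counts, which are the expected counts of a gene divided by the size factor of each library over the 8 YAPi and Ctrli libraries. YAP1 had 364 and 395 in YAPi_ETH and 358 and 364 in YAPi_TAM, against 2034 and 1890 in Ctrli_ETH and 2047 and 2049 in Ctrli_TAM, and the YAPi and Ctrli libraries did not overlap. Within YAPi the YAP1 level did not differ detectably with tamoxifen (log2 fold change -0.07 ± 0.19 SE). WWTR1, which encodes TAZ, was still expressed, at 392 and 356 in YAPi_ETH and 380.2 and 411 in YAPi_TAM. YAP1 RNA thus remained detectable, and the knockdown was read here at the RNA level only.

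The 4 libraries held 19161700 and 10090786 expected counts (YAPi_ETH) and 12014017 and 17468587 (YAPi_TAM), within the range of 6419720 to 19161700 of all 20 ER-Src libraries. The labelled cell type was checked against marker lists in TPM, the deposited length-corrected level that sums to the same total in every library. Basal mammary markers summed to 2138 and 2790 TPM in YAPi_ETH and 2728 and 2996 in YAPi_TAM, and luminal markers to 269.5 and 271.1 against 257.0 and 234.6, with ELF5 at 0 throughout. Endothelial markers summed to at most 0.56 TPM, with CDH5 at 0. Fibroblast markers summed to 148.0 and 182.6 TPM in YAPi_ETH and 205.5 to 261.6 in YAPi_TAM, 1 of 6 (DCN) being called higher. In the YAPi_TAM library with a sum of 261.6, 1 marker alone held 259.3 TPM. Leukocyte markers summed to 13.3 to 14.4 and 22.9 to 27.7 TPM, with CD14 and CD68 called higher and PTPRC and CD3E, which define leukocytes and T cells, at 0 in all 4 libraries. The calls of DCN and CD68 were lost with another test, edgeR (adjusted p = 0.010 and 0.025), and that of CD14 without YAPi_TAM replicate 1 (1.16). The part of these markers in the gene groups below was not tested, and in bulk RNA a change in the number of cells of a kind and a change in RNA per cell cannot be told apart. Counts of ESR1 cannot be assigned to the endogenous gene, since the fusion carries part of it.

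Tamoxifen changed 747 genes in YAPi cells. Of 15875 genes tested by DESeq2, 559 were higher in YAPi_TAM (3.52% of those tested) and 188 were lower (1.18%) at an adjusted p below 0.01, so that 74.8% of the calls were increases. The increases were also the larger changes: 159 genes were higher and 28 lower by more than 2 on the log2 scale, and 87 and 8 by more than 3. The median log2 fold change over the 15064 genes with a mean of at least 10 normalized counts was -0.01. Protein-coding genes made up 711 of the calls and long non-coding RNAs 14. With 2 libraries a group the calls depend on each library: leaving out YAPi_ETH replicate 1 or 2 gave 363 and 446 calls, leaving out YAPi_TAM replicate 1 or 2 gave 304 and 373, and edgeR's quasi-likelihood test gave 422, of which 419 were among the 747. A stricter group of 229 genes (193 higher, 36 lower) was called by DESeq2, by edgeR and with any 1 of the 4 libraries left out, and these are called stable calls below. The labels do not say whether replicates were separate cultures, so p-values measure only the spread between these libraries, which may be technical.

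The 12 genes that rose most were SERPINB4, LTF, HP, SERPINB3, ADAMTS4, IL24, STC1, TENT5C, PLA2G4E, CHI3L1, SOCS3 and LRG1. They were taken from called genes with a gene symbol, a mean of at least 100 normalized counts and no overlap between groups. SERPINB4 and SERPINB3, which encode the squamous cell carcinoma antigens, rose to high levels, SERPINB4 from near absence. SERPINB4 had 1.67 and 2.19 in YAPi_ETH and 7829 and 3877 in YAPi_TAM (log2 fold change 11.61 ± 0.88, adjusted p = 6.7e-37). SERPINB3 had 69.0 and 55.8 in ETH and 13615 and 8372 in TAM (log2 fold change 7.45 ± 0.40, adjusted p = 6.3e-75). These neighbours on chromosome 18 (chr18:63637259-63644256, minus strand, and chr18:63655197-63661893, minus strand) are near-identical copies, so how reads were split between them is uncertain, although both rose.

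IL24, a cytokine of the interleukin-10 family, had 15.0 and 61.3 in YAPi_ETH and 3991 and 5249 in YAPi_TAM (log2 fold change 6.94 ± 0.88, adjusted p = 3.8e-13). The ETH libraries differed from each other by more than for most risers, yet both lay far below the TAM libraries. SOCS3, the feedback inhibitor of cytokine signalling through STAT3, had the smallest standard error of the 12, with 56.7 and 43.8 in ETH and 2483 and 2141 in TAM (log2 fold change 5.49 ± 0.19, adjusted p = 7.9e-174). PLA2G4E, a cytosolic phospholipase A2, had 15.0 and 18.6 in ETH and 1062 and 845 in TAM (log2 fold change 5.86 ± 0.29, adjusted p = 6.9e-89). STC1, the secreted glycoprotein stanniocalcin, had 4.45 and 6.57 in ETH and 370.3 and 271 in TAM (log2 fold change 5.94 ± 0.47, adjusted p = 2.8e-33). In SOCS3, PLA2G4E and STC1 the groups were far apart and the replicates within a group close.

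Several secreted products stood much higher in 1 of the TAM libraries than in the other. LTF, the iron-binding protein lactoferrin, had 0 and 1.09 in ETH and 888 and 99.8 in TAM (adjusted p = 0.00023). Its counts were 1 in the ETH libraries together and 1053 in the TAM libraries, a depth-corrected ratio of 1139 with a 95% interval of 204 to 45047 that covers counting error only. HP, haptoglobin, had 3.89 and 1.09 in ETH and 809 and 135 in TAM (log2 fold change 7.49 ± 1.44, adjusted p = 9.1e-06), and its gene lies over TXNL4B on the other strand. ADAMTS4, a protease that cuts the proteoglycan aggrecan, had 1.11 and 3.28 in ETH and 414 and 119 in TAM (log2 fold change 7.03 ± 1.21, adjusted p = 3.4e-07). CHI3L1, the chitinase-like protein YKL-40, had 41.7 and 43.8 in ETH and 3500 and 1361 in TAM (log2 fold change 5.83 ± 0.67). For LTF, HP and ADAMTS4, YAPi_TAM replicate 1 was the higher library, and LTF and HP were the members of the 12 that were not stable calls. LTF lost its call without YAPi_ETH replicate 1 (log2 fold change 8.82) or replicate 2 (12.22) and with edgeR, and HP lost it with edgeR alone (7.26). TENT5C, a poly(A) polymerase, and LRG1, a leucine-rich acute phase glycoprotein, completed the 12, at 3.89 and 6.57 in ETH and 346 and 226 in TAM and at 5.56 and 5.47 in ETH and 231 and 109.9 in TAM.

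The 12 genes that fell most changed less, with log2 fold changes from -2.75 to -1.84. KRT15, a keratin of basal cells, fell from 4064 and 2447 in ETH to 525 and 461 in TAM (log2 fold change -2.73 ± 0.20, adjusted p = 1.2e-38). CRIP2, a LIM-domain protein, had 238 and 279 in ETH and 34.4 and 45.6 in TAM (log2 fold change -2.67 ± 0.31, adjusted p = 3.3e-16). TFCP2L1, a grainyhead-family transcription factor, had 1360.4 and 1603 in ETH and 345 and 473 in TAM (log2 fold change -1.85 ± 0.18, adjusted p = 2.2e-22). The groups were well separated in all of these. TIMP3, an inhibitor of metalloproteinases bound to the matrix, had 546 and 684 in ETH and 81.5 and 157 in TAM (log2 fold change -2.34 ± 0.27, adjusted p = 5.8e-16), in a gene that lies within SYN3 on the other strand. GPNMB, a glycoprotein of endolysosomal membranes, had 147 and 115 in ETH and 32.4 and 30.1 in TAM. It stood at 0.96 and 3.26 in Ctrli_ETH and 3.53 and 7.67 in Ctrli_TAM, too low for a comparison of the responses. ANKRD2, an ankyrin-repeat protein of muscle, TINAGL1, DLK2, RAPGEFL1, NRG1, SLC25A18 and METTL7A made up the rest. Of the 12, CRIP2, KRT15, METTL7A, RAPGEFL1, TFCP2L1 and TINAGL1 were stable calls. TIMP3 and ANKRD2 were not called without YAPi_ETH replicate 2 (-2.20 and -2.29), and the others were lost with 1 library out but kept their direction.

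**Figure D1:**
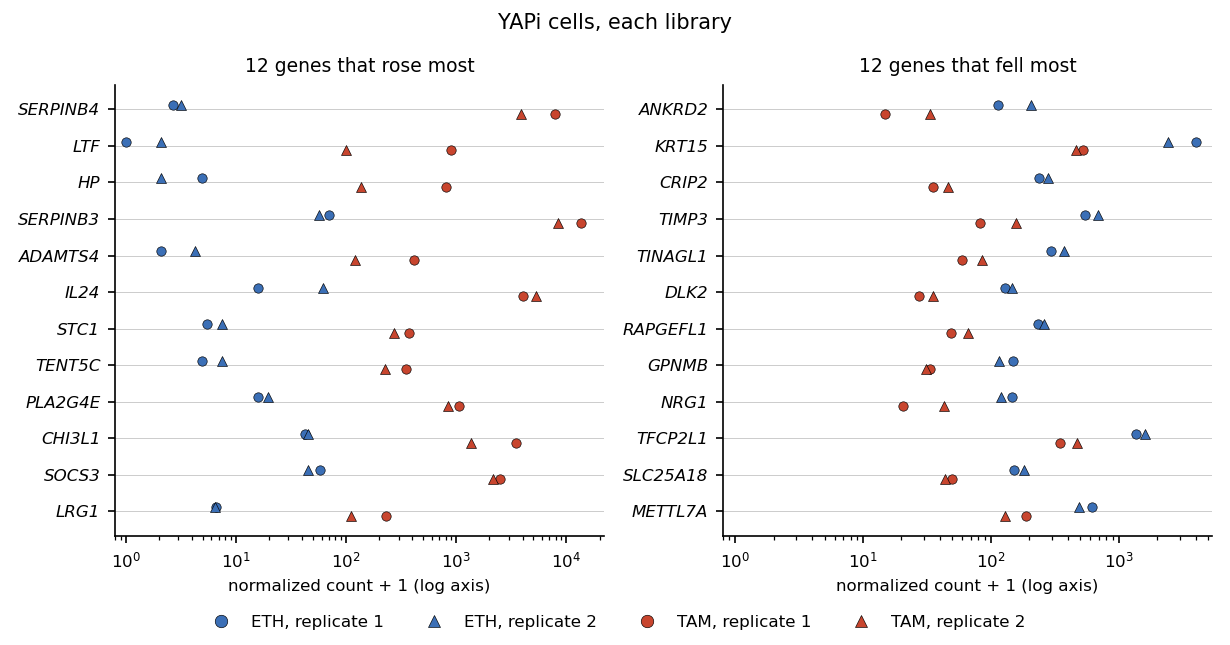
Normalized counts plus 1, on a log axis, in each of the 4 YAPi libraries for the 12 strongest increases and the 12 strongest decreases, with ETH in blue, TAM in red, replicate 1 as circles and replicate 2 as triangles. For every riser both TAM points lie above both ETH points, and LTF and HP have the widest gap between the TAM libraries, at 888 and 99.8 for LTF.

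STAT3 and its targets had the highest share of increases among the 22 lists, which were chosen with earlier results of these data known. For every list count below, the shares of all genes tested were 3.52% higher and 1.18% lower in YAPi. In Ctrli they were 4.44% and 1.51%. Of 20 listed genes, namely STAT3 and its known targets, 15 were higher in YAPi_TAM (75.0%, against 3.52% of all genes) and none was lower, with a median log2 fold change of 1.33. In Ctrli 15 were also higher, with a median of 1.43, and 14 genes were called in both. STAT3 itself had 1872 and 1810.3 in YAPi_ETH and 5308 and 4327 in YAPi_TAM (log2 fold change 1.39 ± 0.13, adjusted p = 2.1e-23), compared with 1.12 in Ctrli. IL4R, a cytokine receptor subunit, had 452 and 545 in ETH and 1368 and 1357 in TAM (log2 fold change 1.46). CEBPD, a transcription factor of the acute phase response, had 443 and 412 in ETH and 1363 and 1227 in TAM (1.60), HIF1A had 5107 and 4365 in ETH and 13401 and 11166 in TAM (1.38), and NNMT, nicotinamide N-methyltransferase, had 3153 and 2390.3 in ETH and 11279 and 9356 in TAM (1.90). None of these overlapped between groups. The size of the response was tested directly against Ctrli, with the null that it differs by at least 2-fold: 12 of the 20 genes lay within 2-fold at an adjusted p below 0.01, SOCS3 (5.49 in YAPi, 5.77 in Ctrli, adjusted p = 0.0035) and STAT3 (adjusted p = 4.9e-05) among them, and none of the 20 was called different. Of the 15 higher genes 10 were stable calls.

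Of the cytokines, IL24, IL20, IL32, IL1B and CSF3 were higher and IL18 was lower among 15 tested. IL32 had 88.4 and 115 in YAPi_ETH and 611 and 537 in YAPi_TAM (log2 fold change 2.52 ± 0.22, adjusted p = 9.1e-28), and IL20, which neighbours IL24, had 0 in both ETH libraries and 48.1 and 31.5 in TAM, at least 34.6-fold higher (against a floor of 3 counts over the ETH group). IL1B, interleukin-1 beta, had 744 and 1005 in ETH and 1142 and 1761 in TAM (log2 fold change 0.74 ± 0.21, adjusted p = 0.0075). IL6, the cytokine that signals to STAT3 through gp130, was near the limit of detection. It had 0 in both ETH libraries and 6.88 and 3.35 in TAM, 12 counts in all, at least 4.33-fold higher against the same floor but with no adjusted p, because its mean count was too low. Its Ctrli levels were 0 and 0 in Ctrli_ETH and 2.35 and 1.92 in Ctrli_TAM. CSF3, the granulocyte colony-stimulating factor, had 1809 and 1736 in ETH and 2491 and 2598 in TAM, a smaller rise (0.52) than in Ctrli (1.42, difference -0.88 ± 0.20, adjusted p = 0.0023). IL24 and IL32 were the stable calls. The CSF3 difference was lost with edgeR (adjusted p = 0.17) and with 7 of the 8 libraries left out in turn. The calls of CSF3 and IL18 were lost with edgeR and with any 1 library left out, and IL20 without YAPi_ETH replicate 1. IL1B was lost without either YAPi_ETH library or YAPi_TAM replicate 2, and with edgeR (adjusted p = 0.13). It was also lost in the fit over all ER-Src groups (0.019), with effective length offsets (0.014) and with a mean count filter of 10 (0.011).

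Some chemokines, which draw neutrophils and lymphocytes, rose as well. Of 11 tested chemokine and receptor genes, 5 were higher and none lower, and edgeR called 4 higher. CCL20 had 808 and 635 in YAPi_ETH and 3582 and 3428 in YAPi_TAM (log2 fold change 2.28 ± 0.14, adjusted p = 5.6e-53), CXCL3 had 169.6 and 182 in ETH and 634 and 606 in TAM (log2 fold change 1.83 ± 0.19, adjusted p = 6e-20), and CXCL2 had 292 and 222 in ETH and 755 and 678 in TAM (log2 fold change 1.47 ± 0.19, adjusted p = 4.8e-12). CCL2 was at 0 in both ETH libraries and at 70.7 and 47.6 in TAM, at least 51.6-fold higher. CXCL8, whose ETH level was 1266 and 824 and whose TAM level was 1505 and 1389.7, was not called (adjusted p = 0.16), while it was called in Ctrli (1.03). The difference between these responses was not called (adjusted p = 0.92). The YAPi_ETH libraries already held more CXCL8 than the Ctrli_TAM libraries did (596 and 725). Of 18 NF-kB subunits and targets, BIRC3, ICAM1, NFKBIA, RELB and TNIP1 were higher. ICAM1, a leukocyte adhesion molecule, had 360.4 and 399.5 in ETH and 1516 and 1364 in TAM (log2 fold change 1.93 ± 0.15, adjusted p = 1.6e-34), within 2-fold of its Ctrli response of 1.63 (adjusted p = 0.00076), and it was the stable call of this list.

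Promoter sequences are given for ICAM1 and CXCL3 because their responses lay within 2-fold of those in Ctrli and each holds, just upstream of its start, letters of a motif that the factors above bind. The stretches are the 120 bases before the annotated start in GENCODE v44 on hg38, read 5′ to 3′ on the gene's strand, with the match in capitals. They lie at chr19:10271000-10271119, plus strand (ICAM1) and chr4:74038690-74038809, minus strand (CXCL3). The ICAM1 match to the STAT motif TTCNNNGAA begins 75 bases upstream of the start, and the CXCL3 match to the NF-kB motif (GGGA and TTTCC with any base between) 79 bases upstream.
ICAM1: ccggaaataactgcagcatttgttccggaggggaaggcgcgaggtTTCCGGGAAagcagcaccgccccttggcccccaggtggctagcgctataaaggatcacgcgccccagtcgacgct
CXCL3: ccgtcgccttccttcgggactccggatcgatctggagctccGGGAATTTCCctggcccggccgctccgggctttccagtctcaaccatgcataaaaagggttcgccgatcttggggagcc

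Over the 250 bases upstream of each start, searched on both strands, TTCNNNGAA was present in 9.77% of 532 promoters of genes higher in YAPi_TAM, in 4.47% of 179 promoters of genes that were lower and in 5.68% of all 19969 promoters. The NF-kB motif was present in 2.44%, 1.12% and 0.476%. The AP-1 motif TGANTCA was present in 6.95%, 7.26% and 4.73%, and GGAATG, the core that TEAD factors bind, in 10.2%, 12.8% and 9.90%. Of the 12699 promoters of genes tested in YAPi, 5.17% held TTCNNNGAA, 0.535% the NF-kB motif, 3.76% TGANTCA and 9.28% GGAATG. Among the 208 promoters of genes higher in both YAPi and Ctrli and within 2-fold, the shares were 5.29% for TTCNNNGAA and 2.88% for the NF-kB motif. GGAATG and TTCNNNGAA can share bases in a promoter. A match describes the letters only, and no test was run on these shares.

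Acute phase and antimicrobial genes gave the largest median of any list. Of 21 tested, 15 were higher (71.4%) and none lower, with a median log2 fold change of 3.07, compared with 14 and 2.58 in Ctrli. C1R and C1S, the proteases of the first complement component, had 229 and 168 in ETH and 2636 and 1614 in TAM (log2 fold change 3.41 ± 0.22, adjusted p = 1.5e-50) and 266 and 244 in ETH and 1616 and 1350.2 in TAM (log2 fold change 2.54 ± 0.16, adjusted p = 2.4e-51). CFB, complement factor B, had 310.3 and 289 in ETH and 6103 and 3457 in TAM (log2 fold change 4.00 ± 0.40, adjusted p = 1.3e-21), and SERPINA1, alpha-1-antitrypsin, had 286 and 304 in ETH and 3403 and 1973 in TAM (log2 fold change 3.19 ± 0.21, adjusted p = 9.8e-49). All 4 were higher in TAM in every pairing of libraries. The calprotectin subunits S100A8 and S100A9 had 5474 and 4979 in YAPi_ETH and 47692 and 35788 in YAPi_TAM, and 10131 and 9840.5 in YAPi_ETH and 101767 and 73636 in YAPi_TAM. SAA1 and SAA2, serum amyloid A copies that share reads, had 3231 and 2298 in ETH and 21551 and 10682 in TAM, and 815 and 482 in ETH and 19666 and 9551 in TAM. In 14 of the 15 called genes YAPi_TAM replicate 1 stood above replicate 2, by a median of 0.82 on the log2 scale. In the STAT3 list it stood above replicate 2 in 13 of the 15 higher genes, by a median of 0.21. Without YAPi_TAM replicate 1, 10 genes of the list were called higher, without YAPi_TAM replicate 2, 17 were, and 7 were stable calls. SERPINA3 and S100A7, named after their values were seen, had the widest gap among the called genes of the list after LTF and HP, with 385 and 178 in ETH and 10703 and 1877 in TAM and 347 and 174 in ETH and 5256 and 1752 in TAM.

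**Figure D2:**
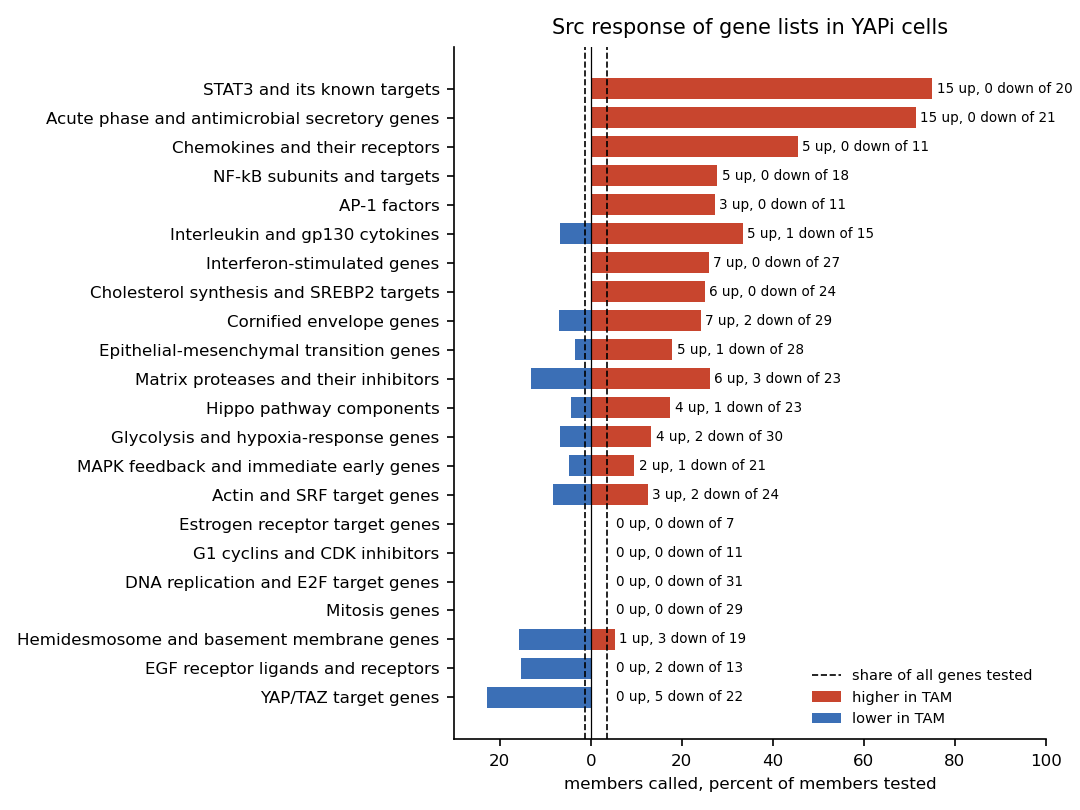
Percent of the tested members of each of the 22 gene lists called higher (red, right) and lower (blue, left) with tamoxifen in YAPi, with the counts beside the bars and dashed lines at the shares of all genes tested (3.52% and 1.18%). The STAT3 list (15 higher of 20) and the acute phase list (15 of 21) have the longest bars, and the YAP/TAZ target list has calls on the lower side (5 of 22).

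Some of the AP-1 subunits rose. Of 11 tested, JUNB, FOS and FOSL2 were higher in YAPi, compared with 6 of 10 in Ctrli, and the median log2 fold changes were 0.39 and 1.19. JUNB had 776 and 862 in YAPi_ETH and 2696 and 2333 in YAPi_TAM (log2 fold change 1.62 ± 0.14, adjusted p = 1.5e-29), against 515 and 661 in Ctrli_ETH and 2763 and 3859 in Ctrli_TAM (2.51). The difference was -0.87 with an adjusted p of 0.02, which misses the threshold. FOS had 127 and 124 in ETH and 467 and 296 in TAM (log2 fold change 1.60 ± 0.26, adjusted p = 8.4e-08), against 237 and 274 in Ctrli_ETH and 1433 and 1526 in Ctrli_TAM (2.55). FOSL2 had 1399 and 1642 in ETH and 2265 and 2264 in TAM (0.58) and 830 and 829 in Ctrli_ETH and 2602 and 2189 in Ctrli_TAM (1.55), and its response was called smaller in YAPi (difference -0.96 ± 0.18, adjusted p = 4e-05). FOSL2 is overlapped by FOSL2-AS1 on the other strand. JUN, which was called in Ctrli (0.83), had 521 and 731 in ETH and 548 and 754 in TAM in YAPi (0.07 ± 0.21, adjusted p = 1.0), with no separation of the groups. Its difference between responses was not called (-0.75). JUNB was the stable call of the list. FOS was lost without YAPi_TAM replicate 1 (log2 fold change 1.25), and the FOSL2 difference without Ctrli_TAM replicate 1 (-0.81), with effective length offsets (-0.66), with edgeR (adjusted p = 0.042) and in the fit over all ER-Src groups (adjusted p = 0.028). Of 21 genes of MAPK feedback and the immediate early response, DUSP1 and SPRED3 were higher (9.52%) and DUSP10 was lower (4.76%). None was a stable call.

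Matrix proteases and their inhibitors gave 6 higher and 3 lower calls of 23 tested in YAPi, and 13 and 3 of 22 in Ctrli. CTSL, the lysosomal protease cathepsin L, had 1406 and 1607 in YAPi_ETH and 7323 and 6470.3 in YAPi_TAM (log2 fold change 2.20 ± 0.13, adjusted p = 4.3e-66). MMP14, a membrane-bound collagenase, had 1107 and 1251 in ETH and 3224 and 3450.2 in TAM (log2 fold change 1.51 ± 0.13, adjusted p = 6.2e-30), within 2-fold of Ctrli (1.48, adjusted p = 1.5e-08). PLAUR, the urokinase receptor, had 309 and 464 in ETH and 1287 and 1140.5 in TAM (log2 fold change 1.66 ± 0.19, adjusted p = 1.3e-15). CTSB, cathepsin B, rose by 1.28 in YAPi and by 2.55 in Ctrli, and that difference was called (difference -1.26 ± 0.16, adjusted p = 1.2e-12). PLAU and TIMP1, chosen after their values were seen, were called in Ctrli and not in YAPi, with differences of -1.25 and -0.75. EdgeR called none of these 3 differences.

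The known YAP/TAZ target genes that passed the test in YAPi were lower with tamoxifen. Of 22 tested, none was called higher by DESeq2 or edgeR (1 at an unadjusted p below 0.05) and 5 were lower in YAPi_TAM (22.7%, against 1.18% of all genes), with a median log2 fold change of -0.25. In Ctrli 3 were higher and 1 was lower, with a median of 0.05. CCN1, a matricellular protein and a classical target, had 771 and 707 in YAPi_ETH and 316 and 316 in YAPi_TAM (log2 fold change -1.22 ± 0.17, adjusted p = 5.2e-11), against 747 and 728 in Ctrli_ETH and 725 and 837 in Ctrli_TAM. CRIM1, a transmembrane binder of growth factors, had 3896 and 3825 in ETH and 1683 and 1823 in TAM (log2 fold change -1.13 ± 0.12, adjusted p = 1.6e-19), and it also fell in Ctrli (-0.56). AXL, a receptor tyrosine kinase, had 1785 and 1595 in ETH and 954 and 959.5 in TAM (log2 fold change -0.82 ± 0.14, adjusted p = 1.1e-07). ANKRD1, an ankyrin-repeat protein induced by YAP, had 95.7 and 71.1 in ETH and 14.7 and 25.5 in TAM (log2 fold change -2.03 ± 0.49, adjusted p = 0.00089), and FJX1 had 508 and 634 in ETH and 246 and 297 in TAM. CCN2 had 95.7 and 105 in ETH and 39.3 and 46.2 in TAM without a call (adjusted p = 0.026). In each of these the TAM libraries lay below the ETH libraries. CCN1 and CRIM1 were stable calls. AXL was lost without YAPi_ETH replicate 1 (-0.73), FJX1 without YAPi_TAM replicate 1 (-0.93) or YAPi_ETH replicate 2 (-0.91), and ANKRD1 with any 1 library left out (-2.51 to -1.71). Of the 22, CCN1 was the one whose response was called different from Ctrli. Of 23 Hippo pathway components, WWC1 (also named KIBRA) had 510 and 595 in ETH and 3559.9 and 2808 in TAM (log2 fold change 2.53 ± 0.15, adjusted p = 6.5e-58), and VGLL4, a competitor of YAP for TEAD, had 364 and 349 in ETH and 814 and 860.4 in TAM (log2 fold change 1.23 ± 0.16, adjusted p = 3.1e-12). WWC1 was within 2-fold of Ctrli (2.62, adjusted p = 4.8e-06), as were 17 of the 23.

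The promoters of CCN1 and ANKRD1 are shown because both genes fell with tamoxifen in YAPi and hold the TEAD core. The stretches are at chr1:85580641-85580760, plus strand (CCN1, the 120 bases before the start) and chr10:90921187-90921327, minus strand (ANKRD1, from 240 to 100 bases before the start) on hg38, with the core or its reverse complement in capitals. It begins 110 bases upstream of the start in CCN1 and 220 and 128 bases upstream in ANKRD1.
CCN1: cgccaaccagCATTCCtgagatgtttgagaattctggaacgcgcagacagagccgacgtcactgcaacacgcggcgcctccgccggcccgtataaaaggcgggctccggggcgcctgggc
ANKRD1: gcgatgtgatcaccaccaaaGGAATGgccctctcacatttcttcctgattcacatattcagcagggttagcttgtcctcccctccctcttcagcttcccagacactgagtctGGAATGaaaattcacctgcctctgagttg

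Adhesion genes were split. ITGB6, an integrin subunit of wounded and transformed epithelium, had 292 and 288 in YAPi_ETH and 2539 and 1833 in YAPi_TAM (log2 fold change 2.91 ± 0.17, adjusted p = 1.5e-59). CDH3, P-cadherin, had 2129 and 2425 in ETH and 8478 and 7105 in TAM (log2 fold change 1.78 ± 0.13, adjusted p = 4.6e-40). CLDN4, a tight junction claudin, had 65.6 and 98.5 in ETH and 334 and 349 in TAM (log2 fold change 2.09 ± 0.27, adjusted p = 4e-13) and was at 6.71 and 6.53 in Ctrli_ETH and 5.88 and 7.67 in Ctrli_TAM. THBS1, thrombospondin-1, fell to 3282 and 3580.2 from 10476 and 7485 (log2 fold change -1.39 ± 0.16, adjusted p = 8.2e-17), as it did in Ctrli (-1.33). Of 28 genes of the epithelial-mesenchymal transition list, 5 were higher and 1 was lower. EGFR, the receptor for the EGF in the medium, had 4027 and 4305 in ETH and 1809 and 2182 in TAM (log2 fold change -1.06 ± 0.13, adjusted p = 1.4e-13). NRG1, a ligand of its family, fell as well, and these were the 2 lower genes of the 13 tested EGF receptor family ligands and receptors. Of 19 hemidesmosome and basement membrane genes, LAMB1 was higher (5.26%, near the 3.52% of all genes). COL4A6, COL7A1 and DST were lower (15.8%, against 1.18%), and edgeR called none of these genes. Among 24 actin and SRF target genes, 3 were higher and 2 (CAV1, CAV2) lower.

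Genes of the cornified envelope, which marks terminal differentiation of stratified epithelium, gave 7 higher and 2 lower calls of 29 tested. KRT6B, a keratin of activated epithelium, had 652 and 1005 in YAPi_ETH and 4725 and 5714 in YAPi_TAM (log2 fold change 2.67 ± 0.18, adjusted p = 1.3e-46), and KRT6A, its near copy, was higher too. SPRR2D and SPRR2A, small proline-rich proteins that share reads, had 50.6 and 59.1 in ETH and 291 and 258 in TAM (log2 fold change 2.34 ± 0.28, adjusted p = 6.2e-15) and 14.5 and 9.85 in ETH and 192 and 111 in TAM (log2 fold change 3.60 ± 0.46, adjusted p = 7.4e-13). TGM3, a transglutaminase of the same pathway, went the other way, with 48.9 and 64.6 in ETH and 3.93 and 8.04 in TAM (log2 fold change -3.19 ± 0.66, adjusted p = 5.2e-05). The SPRR2 genes and TGM3 were almost absent from Ctrli, at no more than 4.79 normalized counts in any library, so that their responses cannot be compared. KRT6B, SPRR2A and SPRR2D were the stable calls of the list. TGM3 was lost without YAPi_TAM replicate 1 (-2.80) and without YAPi_ETH replicate 1 (-3.39) or 2 (-3.01). It was also lost in the fit over all ER-Src groups (adjusted p = 0.11). KRT6A was lost with edgeR (adjusted p = 0.015) and without either YAPi_TAM library.

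Of 24 tested genes of cholesterol synthesis, 6 were called higher in YAPi by DESeq2 and none by edgeR, among them HMGCS1, MVD, FDPS, LSS and MSMO1, and none was lower. LSS, lanosterol synthase, had 2136 and 2142 in YAPi_ETH and 3168 and 2804 in YAPi_TAM (log2 fold change 0.48 ± 0.12, adjusted p = 0.0019), and 2761 and 2719 in Ctrli_ETH and 2140.3 and 2039.7 in Ctrli_TAM (-0.37, adjusted p = 0.0089). MVD, of the mevalonate pathway, had 1329 and 1230.2 in ETH and 2142 and 1841 in TAM (log2 fold change 0.64 ± 0.14, adjusted p = 0.00011). For LSS, MVD and FDPS the response was called more positive than in Ctrli, by 0.87, 1.03 and 0.72. None of the 6 was a stable call. Neither edgeR nor the fit over all ER-Src groups called any of these 3 differences. In that fit the adjusted p was 0.42 for LSS, 0.25 for MVD and 0.015 for FDPS. The FDPS difference was also lost with 7 of the 8 libraries left out in turn. Among 30 glycolysis and hypoxia-response genes, VEGFA had 512 and 591 in ETH and 2000 and 1837 in TAM (log2 fold change 1.81 ± 0.14, adjusted p = 5.7e-34), PFKFB3 had 223 and 270.3 in ETH and 810.4 and 817 in TAM (1.73) and SLC2A3, the glucose transporter GLUT3, had 39.5 and 48.2 in ETH and 238 and 219 in TAM (2.40). SLC2A1, GLUT1, was lower (log2 fold change -0.94 ± 0.20, adjusted p = 6.9e-05). Its call was lost with edgeR (adjusted p = 0.043) and without YAPi_TAM replicate 1 (-0.75) or YAPi_ETH replicate 2 (-0.67). VEGFA, PFKFB3 and SLC2A3 were the stable calls of that list.

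Interferon-stimulated genes gave 7 higher calls and none lower of 27 tested. IRF1, a transcription factor of interferon signalling, had 266 and 229 in YAPi_ETH and 612 and 553 in YAPi_TAM (log2 fold change 1.23 ± 0.19, adjusted p = 7.1e-09), and PARP9 had 309 and 269 in ETH and 673 and 621 in TAM (log2 fold change 1.16 ± 0.18, adjusted p = 1e-08). These were the stable calls of the list. In Ctrli DESeq2 called 3 genes of the list higher, while edgeR called 5 higher in YAPi and 5 in Ctrli. The median log2 fold changes were 0.69 in YAPi and 0.61 in Ctrli. No gene of this list was called different between the responses. No cell cycle gene of the lists passed the test in YAPi. None of 29 mitosis genes, 31 replication genes or 11 G1 cyclins and CDK inhibitors was called in either direction in YAPi by DESeq2 or by edgeR, with medians of -0.40, -0.15 and -0.31. At an unadjusted p below 0.05, 12 mitosis genes, 1 replication gene and 4 of the G1 list were lower in YAPi and none was higher. In Ctrli DESeq2 called 3 mitosis and 4 replication genes lower by adjusted p, and edgeR called 0 and 1. At an unadjusted p below 0.05, 10 mitosis genes, 16 replication genes and 4 of the G1 list were lower in Ctrli and none was higher. MYC had 3156 and 3323 in ETH and 2741 and 2705 in TAM (-0.25, adjusted p = 0.29). None of 7 tested estrogen receptor targets was called by DESeq2 or edgeR in YAPi or in Ctrli, and at an unadjusted p below 0.05 none moved in YAPi and 1 in each direction in Ctrli.

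The response was then set against that with the control siRNA. In Ctrli 726 genes were higher (4.44% of 16357 tested) and 247 were lower (1.51%). Of the YAPi calls 67.1%, and of the Ctrli calls 51.5%, were called in both, 501 genes, and 499 of these moved the same way (415 higher, 84 lower). The Ctrli calls depend on single libraries as well, with 422 and 444 left without Ctrli_ETH replicate 1 or 2 and 437 and 504 without Ctrli_TAM replicate 1 or 2. XDH and LSS moved in opposite directions. Over the 501 genes the median size of the change was 1.21 in YAPi and 1.37 in Ctrli on the log2 scale, and 314 changes were larger in Ctrli and 187 in YAPi. The groups share no library, but a gene had to pass the threshold in both to be in this count. Without that condition the YAPi values were smaller: the genes higher in Ctrli had a median of 1.24 in Ctrli and 0.85 in YAPi (710 genes with a mean of at least 10 counts), and those lower in Ctrli -0.81 and -0.48 (237 genes). These genes were chosen in Ctrli, so the medians are a description.

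A direct test of the difference called few genes. In a model with siRNA, treatment and their interaction over the 8 libraries, 28 of 15683 genes had a more positive response in YAPi (0.179%) and 50 a more negative one (0.319%). At an unadjusted p below 0.05 there were 836. The opposite test, for a difference of less than 2-fold, called 6772 of 10821 genes (62.6%). Among the 973 Ctrli calls 432 (44.4%) lay within 2-fold, 65 (6.68%) were called different, and 477 were neither. The 472 genes called in Ctrli and not in YAPi are therefore mostly not shown to differ: 39 were called different, 168 were within 2-fold and 266 were neither. The same holds for the 246 called in YAPi alone, with 7, 60 and 179. A gene with a small but called difference can also pass the test for within 2-fold, so these groups can share a gene. Leaving out 1 library at a time gave 48 to 78 genes with a called difference, the fewest without Ctrli_ETH replicate 1 (48) and Ctrli_TAM replicate 1 (51), and edgeR called 15.

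**Figure D3:**
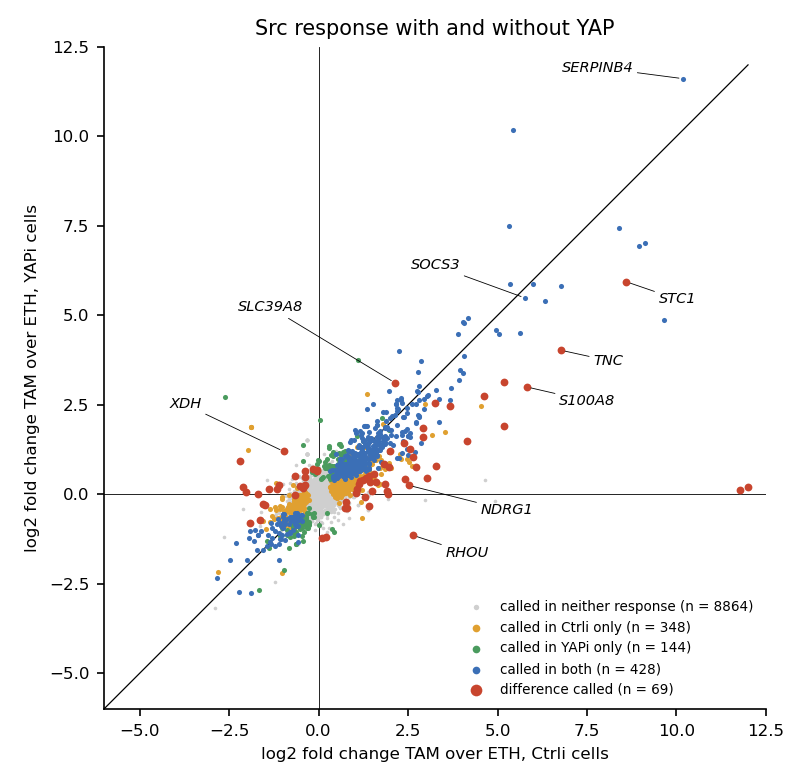
Log2 fold change with tamoxifen in Ctrli (horizontal) and YAPi (vertical) for 9853 genes with a mean of at least 100 normalized counts; each point is 1 gene, coloured by whether it was called in both responses, in 1 of them, or for the difference (69 genes), with 3 genes beyond the limits of the axes. Most coloured points lie near the line of equal response, and the genes with a called difference lie away from it, mostly below it on the right.

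Most genes with a called difference had moved in Ctrli. Of the 78 genes with a called difference, 65 were called in Ctrli. For 64 of these the YAPi response was weaker or opposite (45 that rose and 19 that fell in Ctrli), and for 1, SLC39A8, a zinc transporter named after its values were seen, it was larger (3.12 in YAPi and 2.13 in Ctrli, not called by edgeR). Of the 64 genes, 23 were still called in YAPi in the Ctrli direction. The Ctrli response enters the difference, so these counts are a description. A weaker response can come with a higher starting level or a lower induced one. Among the 45 genes the level without tamoxifen was higher in YAPi than in Ctrli in 41 (at least 2-fold in 21), and the level with tamoxifen was lower in 34 (at least 2-fold in 13). The shift was larger in ETH for 31 genes and in TAM for 14.

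S100A8, S100A9 and ENTPD3 had a raised starting level. S100A8 had 5474 and 4979 in YAPi_ETH and 47692 and 35788 in YAPi_TAM, against 340.3 and 331 in Ctrli_ETH and 18630.5 and 18837 in Ctrli_TAM. The YAPi libraries were higher than the Ctrli libraries in both treatments, and the response was smaller (difference -2.81 ± 0.18, adjusted p = 6.4e-52). ENTPD3, an enzyme that breaks down extracellular nucleotides, had 199.7 and 229 in YAPi_ETH and 714 and 876 in YAPi_TAM, against 1.92 and 6.53 in Ctrli_ETH and 160 and 134 in Ctrli_TAM (difference -3.28 ± 0.60, adjusted p = 2.1e-05). SERPINB13, a protease inhibitor of squamous epithelium, had 229 and 218 in YAPi_ETH and 700.4 and 566 in YAPi_TAM, against 33.5 and 37.0 in Ctrli_ETH and 621 and 602 in Ctrli_TAM (difference -2.62 ± 0.31, adjusted p = 1.1e-13). In SERPINB13 the TAM levels of YAPi and Ctrli overlapped and the ETH levels did not. LINC01127, a long non-coding RNA, belonged to the same group (difference -2.57 ± 0.37, adjusted p = 2.4e-09). The ENTPD3 difference was lost with edgeR (adjusted p = 0.022) and without Ctrli_ETH replicate 1 (-2.60) or replicate 2 (-4.37).

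Other genes were not induced to the Ctrli level. RHOU, a small GTPase, had 80.6 and 81.0 in YAPi_ETH and 37.3 and 35.5 in YAPi_TAM, against 49.8 and 67.4 in Ctrli_ETH and 347 and 376 in Ctrli_TAM (difference -3.78 ± 0.43, adjusted p = 5.1e-15). NDRG1, a stress-response gene, had 798 and 1235 in YAPi_ETH and 1192 and 1209 in YAPi_TAM, against 888 and 964 in Ctrli_ETH and 5551 and 4966 in Ctrli_TAM (difference -2.26 ± 0.22, adjusted p = 3.3e-20). LOX, the collagen crosslinking enzyme lysyl oxidase, had 216 and 189 in YAPi_ETH and 314 and 229.8 in YAPi_TAM, against 277 and 289 in Ctrli_ETH and 1477 and 1529 in Ctrli_TAM (difference -2.00 ± 0.25, adjusted p = 5.2e-12). LOX lies over SRFBP1 on the other strand, and both NDRG1 and LOX were named after their values were seen. In these 3 genes the ETH levels of YAPi and Ctrli differed less than the TAM levels, and the TAM levels of YAPi lay far below those of Ctrli. STC1 rose strongly in YAPi but less than in Ctrli, where it had 11.5 and 11.96 in Ctrli_ETH and 4937 and 4029.5 in Ctrli_TAM (difference -2.64 ± 0.54, adjusted p = 0.00033). That difference was lost with edgeR (adjusted p = 0.20) and without Ctrli_ETH replicate 1 (-2.60) or YAPi_ETH replicate 2 (-2.42).

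TNC, the matrix protein tenascin-C, and SERPINE2, a protease inhibitor, shifted at both ends. TNC had 84.0 and 102 in YAPi_ETH and 1571 and 1408 in YAPi_TAM, against 25.9 and 39.1 in Ctrli_ETH and 3985 and 2970.3 in Ctrli_TAM (difference -2.73 ± 0.30, adjusted p = 1.7e-16). SERPINE2 had 252 and 226 in YAPi_ETH and 439 and 395 in YAPi_TAM, against 72.8 and 88.1 in Ctrli_ETH and 799 and 735 in Ctrli_TAM (difference -2.46 ± 0.28, adjusted p = 3.8e-15). In both genes the YAPi libraries were the higher ones in ETH and the lower ones in TAM. The TNC difference was not called when effective lengths entered the fit as offsets (-3.71), and the SERPINE2 rise within YAPi was not a stable call. CCN1 was lower with tamoxifen in YAPi and was not called in Ctrli (difference -1.31 ± 0.21, adjusted p = 5.6e-07), with overlapping ETH levels in YAPi and Ctrli.

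The positive differences were in large part genes that fell in Ctrli and kept their level in YAPi. CD24, a mucin-like surface protein, had 4481 and 5101 in YAPi_ETH and 5289.7 and 5297 in YAPi_TAM, against 1010.2 and 882 in Ctrli_ETH and 405 and 438 in Ctrli_TAM (difference 1.32 ± 0.17, adjusted p = 6.7e-12). PPL, the desmosomal plakin periplakin, had 1511 and 1720.5 in YAPi_ETH and 1341 and 1348 in YAPi_TAM, against 1047 and 1349.5 in Ctrli_ETH and 375 and 434 in Ctrli_TAM (difference 1.31 ± 0.21, adjusted p = 5.6e-07). EHF, an epithelial ETS factor whose lower level was not called in Ctrli, had 532 and 413 in YAPi_ETH and 533 and 523 in YAPi_TAM, against 130.3 and 123 in Ctrli_ETH and 47.1 and 48.0 in Ctrli_TAM (difference 1.57 ± 0.35, adjusted p = 0.0014). Its difference was lost with edgeR (adjusted p = 0.028) and with 6 of the 8 libraries left out in turn (1.41 to 1.60). CD24 and EHF were higher in YAPi than in Ctrli in both treatments, with no overlap. XDH, xanthine dehydrogenase, rose in YAPi, with 602 and 584 in YAPi_ETH and 1718 and 1007 in YAPi_TAM, and fell in Ctrli, with 807 and 768 in Ctrli_ETH and 426 and 363 in Ctrli_TAM (difference 2.19 ± 0.29, adjusted p = 2.7e-11). FUCA1, a lysosomal fucosidase, and FGFBP1, a carrier of fibroblast growth factors, had differences of 1.37 and 1.24. XDH, PPL, FUCA1 and FGFBP1 kept their called difference with any 1 library left out and lost it with edgeR. XDH lost its rise within YAPi without YAPi_TAM replicate 1 (0.78), among others. NME1-NME2 (1.72) is a readthrough gene that shares its reads with NME2, whose difference had the other sign (-0.98), and RPL39P3 (2.10) is a processed pseudogene of a ribosomal protein, so both are uncertain. Of the 78, 61 were protein-coding and 19 overlapped another gene on their own strand. Under both tools and with any 1 of the 8 libraries left out, 15 held, CD24 in the positive direction and 14 in the negative, among them CCN1, LINC01127, LOX, NDRG1, RHOU, S100A8, S100A9, SERPINB13, SERPINE2 and TNC. Genes without a symbol were not named here. Some of them were among the 14, with differences of -13.56 and -11.63, more negative than that of RHOU.

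**Figure D4:**
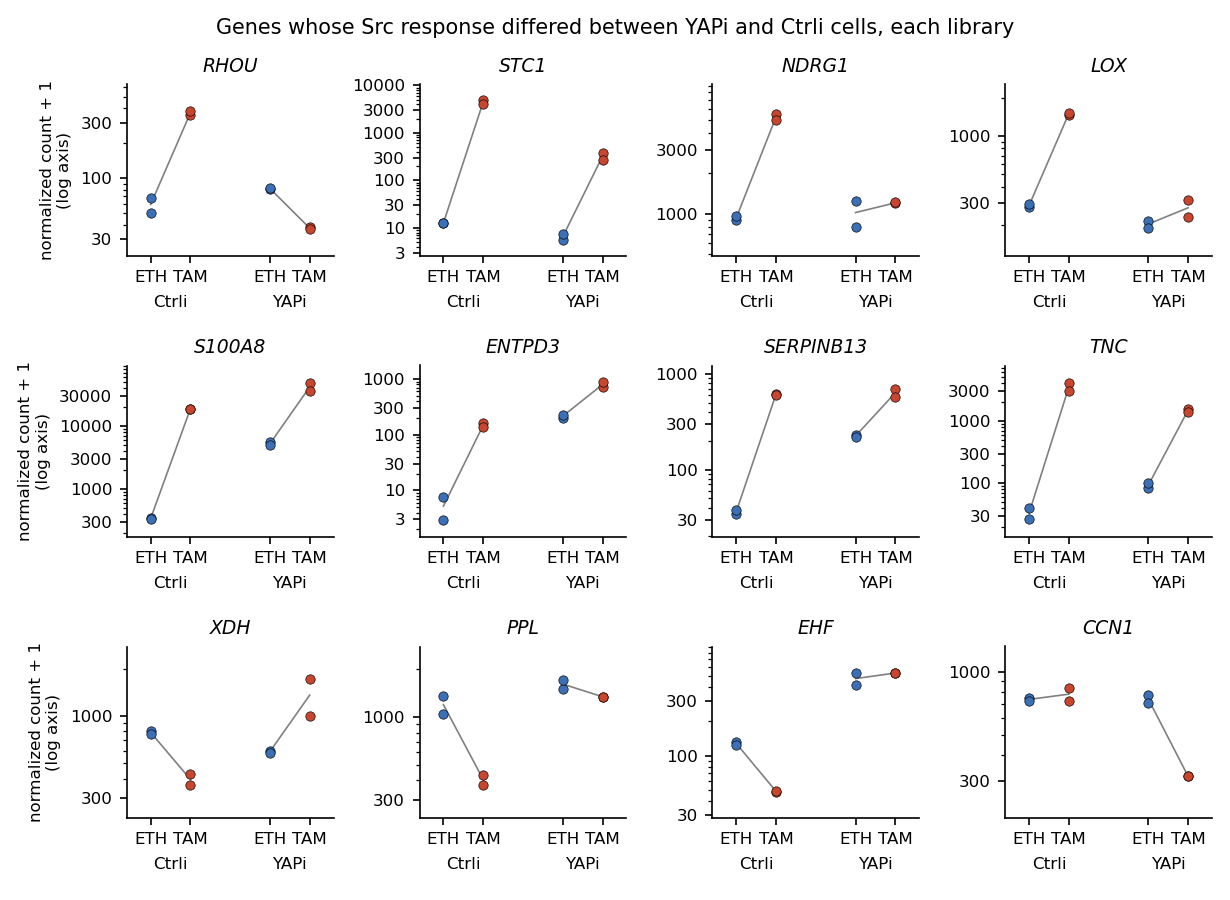
Normalized counts plus 1, on a log axis, in the 8 YAPi and Ctrli libraries for 12 genes with a called difference between the responses, each point being 1 library and each line joining the group means of 1 siRNA. S100A8 starts higher in YAPi (5474 and 4979 against 340.3 and 331.0 in ETH), RHOU does not rise in YAPi, and PPL falls less in YAPi than in Ctrli.

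The same response was set beside those under the other siRNAs of the series, each with its own ethanol libraries. With TAZ siRNA 1118 genes were called (6.56% of those tested), with JUNB siRNA 369 (2.23%) and with STAT3 siRNA 125 (0.904%), counts that also depend on the depth and spread of those libraries. The median of gene length minus effective length was 49.0 bases in every JUNBi and STAT3i library. It was 49.47 to 49.49 in the Ctrli, YAPi and TAZi libraries, and the part of this in the counts was not tested. Of the 747 YAPi calls 75.2% were called in TAZi, 562 genes, all in the same direction, and these are 50.3% of the TAZi calls. The shares for JUNBi were 34.8% and 70.5%, and for STAT3i 10.2% and 60.8%. The 12 strongest risers in YAPi had a median log2 fold change of 6.44 in YAPi, 6.38 in Ctrli, 7.57 in TAZi, 6.45 in JUNBi and 3.37 in STAT3i, and 12, 12, 12 and 5 of them were called higher in Ctrli, TAZi, JUNBi and STAT3i. The 12 strongest fallers had medians of -2.13, -1.90, -2.60, -2.14 and -0.32 in the same order. Of these 12, DESeq2 called 8 lower in Ctrli, 12 in TAZi, 9 in JUNBi and none in STAT3i. At an unadjusted p below 0.05, 11, 12, 11 and 2 of them were lower in Ctrli, TAZi, JUNBi and STAT3i. The 24 genes were chosen for their size in YAPi, so these medians are a description. No difference from JUNBi or STAT3i was tested.

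**Figure D5:**
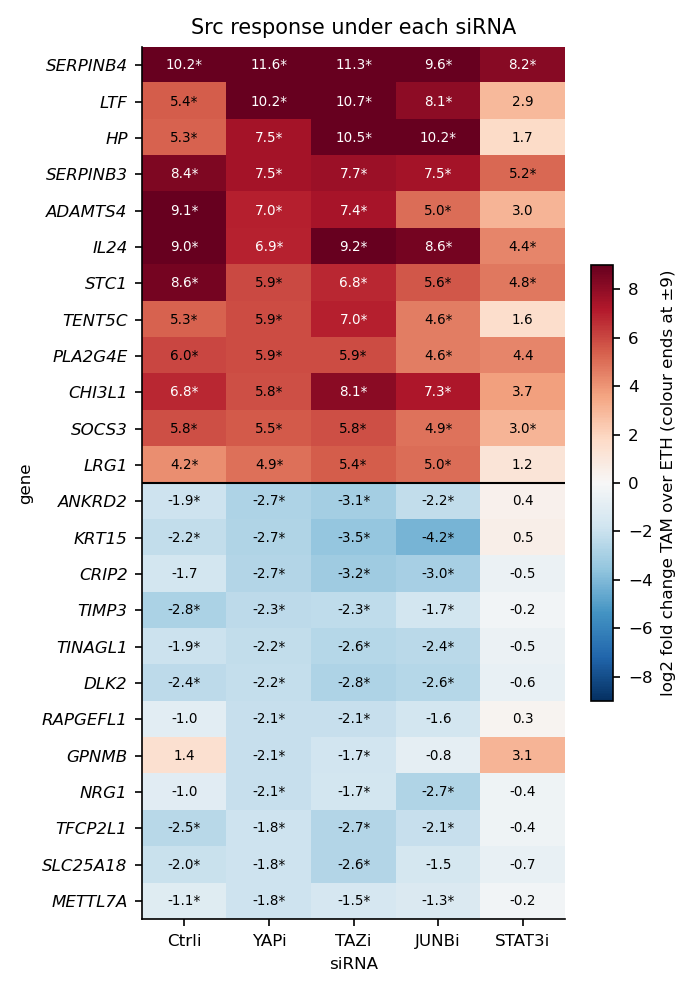
Log2 fold change with tamoxifen for the 12 strongest risers and 12 strongest fallers of YAPi (rows) under each siRNA (columns), as a colour scale that ends at 9 in either direction, with the value in each cell and an asterisk where the adjusted p was below 0.01. GPNMB has a positive value, not called, in Ctrli and STAT3i. LTF (10.17 in YAPi and 5.43 in Ctrli) and STC1 (5.94 and 8.60) also differ in colour. Most other rows have similar colours in YAPi, Ctrli, TAZi and JUNBi. Most rows are paler in STAT3i, where the medians were 3.37 and -0.32.

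The difference from TAZi was tested, since YAP and TAZ are paralogs. It was called for 42 of 22890 genes (0.183%), 20 more positive and 22 more negative in YAPi, with 910 at an unadjusted p below 0.05. This comparison and the one with Ctrli share the YAPi libraries. CD24 stayed level in YAPi and fell in TAZi (difference 2.00, adjusted p = 1e-18). On the scale of this fit it had 4870 and 5541 in YAPi_ETH, 5750 and 5783 in YAPi_TAM, 1637 and 1948 in TAZi_ETH and 405.5 and 585.1 in TAZi_TAM. PPL (1.67), CRABP2, which encodes a retinoic acid binding protein (2.67), and LYPD3 (1.81) were the other named positive differences. ENTPD3 (-2.82), S100A8 (-2.63), RHOU (-2.38) and SERPINE2 (-2.11) were the most negative among genes with a symbol and a mean of at least 100 counts. S100A8 had 5949 and 5407 in YAPi_ETH and 51838 and 39070.2 in YAPi_TAM, against 702.5 and 833.6 in TAZi_ETH and 38140 and 37956 in TAZi_TAM. As against Ctrli, its YAPi_ETH libraries were the higher ones. Leaving out 1 library gave 12 to 54 genes, with 12 without TAZi_ETH replicate 2, 15 without TAZi_TAM replicate 2 and 20 without TAZi_TAM replicate 1 or YAPi_TAM replicate 2, and edgeR called 6. ENTPD3, PPL, S100A8, S100A9 and SERPINE2 held with edgeR and with any 1 library left out, although S100A8 was not called in the fit over all ER-Src groups (adjusted p = 0.048). CD24, RHOU, CRABP2 and LYPD3 were not called by edgeR, and with the 8 libraries left out in turn CRABP2 was lost in 6 fits, LYPD3 in 7 and RHOU in 4.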

How the data were processed

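RNA-seq of ribosome-depleted total RNA was available for 20 MCF-10A ER-Src libraries, of which the 4 YAPi libraries and the 4 Ctrli libraries carry the main comparisons. Per the study's methods, the authors trimmed reads, aligned them with STAR (up to 20 alignments per read) to hg38 with GENCODE v30, and deposited expected counts from RSEM together with TPM values. Because reads with several alignments are shared out by RSEM, near-identical genes are uncertain, and the strand setting was not given in the sources used here. Expected counts of Ensembl genes were rounded to whole numbers, and 0.0376 to 0.0695% of the counts in the YAPi libraries, on other identifiers, were left out. Symbols and positions came from GENCODE v44, in which 93.1% of 60725 identifiers matched.

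Each comparison had its own DESeq2 1.42.0 run (R 4.3.3) with default settings and Benjamini-Hochberg adjustment, called at an adjusted p below 0.01. Interaction terms tested differences between responses, and a test against a log2 threshold of 1 those within 2-fold. Errors are standard errors, and normalized counts come from the fit over 8 libraries. In YAPi the libraries held 10090786 to 19161700 counts, and replicates differed with an SD of the log2 ratio of 0.286 (YAPi_TAM) and 0.278 (YAPi_ETH) over 9851 genes. Intervals and floors cover counting error only.

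The 22 lists (522 genes, 521 matched) and the genes named (the 12 strongest in each direction in YAPi, the 8 strongest differences from Ctrli and 4 from TAZi in each direction, with a mean of at least 100 counts, and up to 6 genes per list by p plus key genes) were chosen with earlier results of these data known. Genes named by the size of a change or difference also had to have a gene symbol. KRT6A, SAA1, SAA2, NME2 and the called marker genes were named after their values were seen. Alternatives were edgeR 4.0.16, effective length offsets, size factors by TMM, genes kept only at a mean of at least 10 counts, a fit over all ER-Src groups, a replicate block and leaving out each library. The scripts were tested on simulated data. Some genes and 1 promoter are not reported here.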

Additional observations from a re-analysis of the deposited data

Results flagged for a closer look

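The items here were singled out because the response to tamoxifen was called different between siRNAs by an interaction test. No explanation was tested for any of them. Against Ctrli 78 genes were called, and against TAZi 42. Of the genes named in the text, the more negative responses in YAPi than in Ctrli were those of RHOU (-3.78), ENTPD3 (-3.28), S100A8 (-2.81), TNC (-2.73), STC1 (-2.64), SERPINB13 (-2.62), LINC01127 (-2.57), SERPINE2 (-2.46), NDRG1 (-2.26), S100A9 (-2.04), LOX (-2.00), CCN1 (-1.31), CTSB (-1.26), PLAU (-1.25), NME2 (-0.98), FOSL2 (-0.96), CSF3 (-0.88) and TIMP1 (-0.75), each a difference of log2 fold changes. The more positive responses were those of XDH (2.19), RPL39P3 (2.10), NME1-NME2 (1.72), EHF (1.57), FUCA1 (1.37), CD24 (1.32), PPL (1.31), FGFBP1 (1.24), MVD (1.03), SLC39A8 (1.00), LSS (0.87) and FDPS (0.72). Against TAZi the differences were CRABP2 (2.67), CD24 (2.00), LYPD3 (1.81), PPL (1.67), SERPINE2 (-2.11), RHOU (-2.38), S100A8 (-2.63) and ENTPD3 (-2.82).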

How the results depend on the processing

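Calls in YAPi numbered 747, and 422 with edgeR's quasi-likelihood test and 304 to 446 with 1 library left out. Ctrli calls fell from 973 to 422 to 504 with 1 library left out. The difference from Ctrli went from 78 genes to 15 with edgeR, 49 with all ER-Src groups in the fit and 48 to 78 with 1 library left out, and the difference from TAZi from 42 to 6, 21 and 12 to 54. The count within 2-fold, 6772, became 5101 to 5890 with 1 library left out, and edgeR was not run for it. TMM size factors and a filter on mean counts moved none of these counts by more than 1.5 times. Replicate numbers are shared by the groups without a stated batch, and same-numbered YAPi libraries deviated from their group means together (r = 0.40 over 9851 genes, against 0.14 in Ctrli). With a replicate block the YAPi calls were 709, the Ctrli calls 628, and the difference from Ctrli 117. Of the named genes, IL20 (adjusted p = 0.47), CCL2 (0.37), DUSP10 (0.053), LYPD3 (0.025), ANKRD1 (0.015), SERPINE2 (0.011) and COL7A1 (0.010) were then not called in YAPi, nor was the STC1 difference (0.016). Signs turned for values near 0 that were not called. With effective length offsets these were YAP1 in YAPi (0.18) and CLDN4 (-0.46) and FDPS (0.0016) in Ctrli. With 1 library left out they were, in YAPi, JUN (-0.18 to 0.32), NDRG1 (-0.028 to 0.58), NME1-NME2 (-0.070 to 0.11), EHF (-0.018 to 0.37) and RPL39P3 (-0.13 to 0.29), and in Ctrli HMGCS1 (-0.16 to 0.12) and CCN1 (-0.0062 to 0.19). Of the other values of named genes under the alternatives, 2608 stayed on their side of the threshold and 402 were no longer called. With 2 libraries a group, the depth and number of libraries limit what could be called among genes of low count.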
